A study of Mus musculus with 12 samples.

Results

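The enzymes that write and erase DNA methylation were followed as a group of 7 genes: Dnmt1, Uhrf1, Dnmt3a, Dnmt3b, Tet1, Tet2 and Tet3. They were taken by name, through their gene identifiers in GENCODE mouse release M21, and each matched 1 of the 55487 identifiers in both deposited count tables. All 7 passed the filter on low counts in both tables. RNA was measured, and DNA methylation itself was not analysed here.

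Methylation of cytosine in CpG dinucleotides is written by DNA methyltransferases. DNMT1 copies the pattern onto the new strand behind the replication fork, where UHRF1 binds half-methylated CpGs and brings it in, while DNMT3A and DNMT3B can methylate sites that carried no mark. TET1, TET2 and TET3 oxidise methylcytosine, with iron and 2-oxoglutarate as cofactors, after which the mark is lost by dilution at replication or by base excision. In CD8 T cells, DNMT3A and TET2 are both known for their effects on the choice between effector and memory fates.

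The cells were OT-1 CD8+ T cells, whose transgenic T cell receptor recognises a peptide of ovalbumin. Female and Male were splenic cells of either sex, stimulated with beads against CD3 and CD28 plus IL2 and collected after 3 days. WT and KD were male cells of another batch, in a table of their own, electroporated and cultured for 3 days: KD with Cas9 and a guide RNA against the Y-linked histone demethylase gene Kdm5d, WT with guide RNA but no Cas9. Each group held 3 samples, and neither the age nor the number of mice was given, so p-values measure the spread between these samples, which may be technical. In KD against WT, the presence of Cas9 and the reduction of Kdm5d cannot be told apart.

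Total counts ran from 78748647 to 110803318 per library. Levels are given as CPM, the counts of a gene per 1000000 counts of its library, scaled by TMM, a normalization that assumes most genes do not differ. Kdm5d held 0 to 2 counts in the Female libraries and 4584 to 4755 in Male. In WT it was at 48.4, 51.9 and 52.4 CPM, and in KD at 21.4, 21.8 and 22.9 CPM, so the KD mean was 43.3% of the WT mean. Of 6 listed CD8 T cell marker genes, 3 fell in Male and 3 in KD, and their summed level was 1505 to 1540 CPM in Male against 1597 to 1618 in Female, and 1716 to 1769 in KD against 1842 to 1896 in WT. The 14 markers of other blood cells summed to 8.72 to 10.7 CPM in Male, 6.62 to 8.77 in Female, 6.82 to 8.61 in KD and 9.90 to 11.1 in WT. Ms4a1, Hba-a1 and Hbb-bs had no count in either table, and Adgre1 had none in the WT and KD table. The part of other cells in the results was not tested.

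Stretches upstream of a transcript start are shown for 4 genes: Tet1, with the widest change, Tet2, which moved against it, Dnmt3a, the writer that differed most between the sexes, and Uhrf1, which moved with DNA replication genes in the knockdown batch. They come from RefSeq (GRCm38.p6), which gave 12 start windows for the 7 genes, and they hold no base of an exon annotated in GENCODE M21. Capitals mark CpG dinucleotides in the first 3 and an E2F word in the last. The first 3 stretches end at the base before a start, while that of Uhrf1 lies farther upstream of its start at 56304313, and the bases between are not shown. E2F factors drive genes of the G1 to S transition.
Tet1, chr10:62887325-62887412, minus strand: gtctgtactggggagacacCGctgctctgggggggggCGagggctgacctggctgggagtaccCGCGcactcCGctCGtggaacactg
Tet2, chr3:133544391-133544510, minus strand: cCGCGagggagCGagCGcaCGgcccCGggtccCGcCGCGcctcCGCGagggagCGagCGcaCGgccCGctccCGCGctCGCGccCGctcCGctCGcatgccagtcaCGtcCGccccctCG
Dnmt3a, chr12:3806860-3806979, plus strand: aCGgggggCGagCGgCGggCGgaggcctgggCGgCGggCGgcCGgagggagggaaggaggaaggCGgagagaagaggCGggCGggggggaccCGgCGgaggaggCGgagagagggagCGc
Uhrf1, chr17:56304063-56304182, plus strand: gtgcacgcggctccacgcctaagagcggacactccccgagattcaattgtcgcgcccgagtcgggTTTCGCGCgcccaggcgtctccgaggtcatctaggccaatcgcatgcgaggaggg

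The Tet2 stretch held 25 CpGs in 120 bases, the Dnmt3a stretch 16 in 120 and the Tet1 stretch 6 in 88. Over the whole 250 bases before the start, Tet2 held 51 CpGs, more than 99.93% of the 32851 mouse start windows of that length, whose median was 6. Tet1 held 15, which is more than 72.7% of them. Dnmt3a held 38, 40 and 15 before its 3 starts. An E2F word (TTTGGCGC, TTTCCCGC, TTTGCCGC or TTTCGCGC, on either strand) was found before 1 start of Uhrf1, beginning 185 bases upstream, and before 1 start of Dnmt1, 219 bases upstream. Such a word occurs in 1.86% of all windows. The GC box GGGCGG, bound by SP1-type factors, was in 10 of the 12 member windows and in 32.7% of all windows. Some Dnmt3a windows overlap, and most member windows held more CpGs than the median of 6, which was not corrected for. The E-box CACGTG was in 1 member window, before a Dnmt3a start, against 6.02% of all. Neither GAAANNGAAA, the core of interferon-responsive elements, nor the ETS word CCGGAAGT was in any, against 2.98% and 2.88% of all. These matches describe the letters of the windows and show no binding.

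Between the sexes, 6 of the 7 genes passed the test (edgeR quasi-likelihood, Benjamini-Hochberg adjusted p under 0.05 over 20208 genes), 3 higher and 3 lower in Male. That comparison called 49.8% of all genes, 23.5% higher and 26.3% lower. This share includes genes at low counts: requiring at least 1 CPM in 3 samples still left 9487 calls, against 10067. No share was computed among genes as abundant as the members. Tet1, Dnmt3a and Dnmt1 fell in Male, and Tet2, Uhrf1 and Tet3 rose. After electroporation with Cas9 and the Kdm5d guide, 6 of 7 passed among 20413 genes, 4 higher and 2 lower in KD. There the shares over all genes were 35.1% called, 16.8% higher and 18.4% lower. Tet1, Uhrf1, Dnmt3b and Dnmt1 rose in KD, and Tet2 and Dnmt3a fell.

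The 3 samples of one group lay wholly above or below those of the other for 6 of 7 members in Male against Female and for 6 of 7 in KD against WT, where 58.3% and 46.8% of all genes did so. These shares also include genes at low counts. Tet1, Tet2 and Dnmt1 passed in both comparisons with opposite signs, which 14.1% of the 19529 genes tested in both did. Uhrf1 and Dnmt3a passed in both with the same sign, as did 11.5% of genes. The calls of Dnmt1 in both comparisons and of Dnmt3a in KD against WT did not hold under every alternative, as given below. The 2 comparisons share no sample. In bulk RNA, fewer cells of a type and less RNA per cell cannot be told apart.

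**Figure D1:**
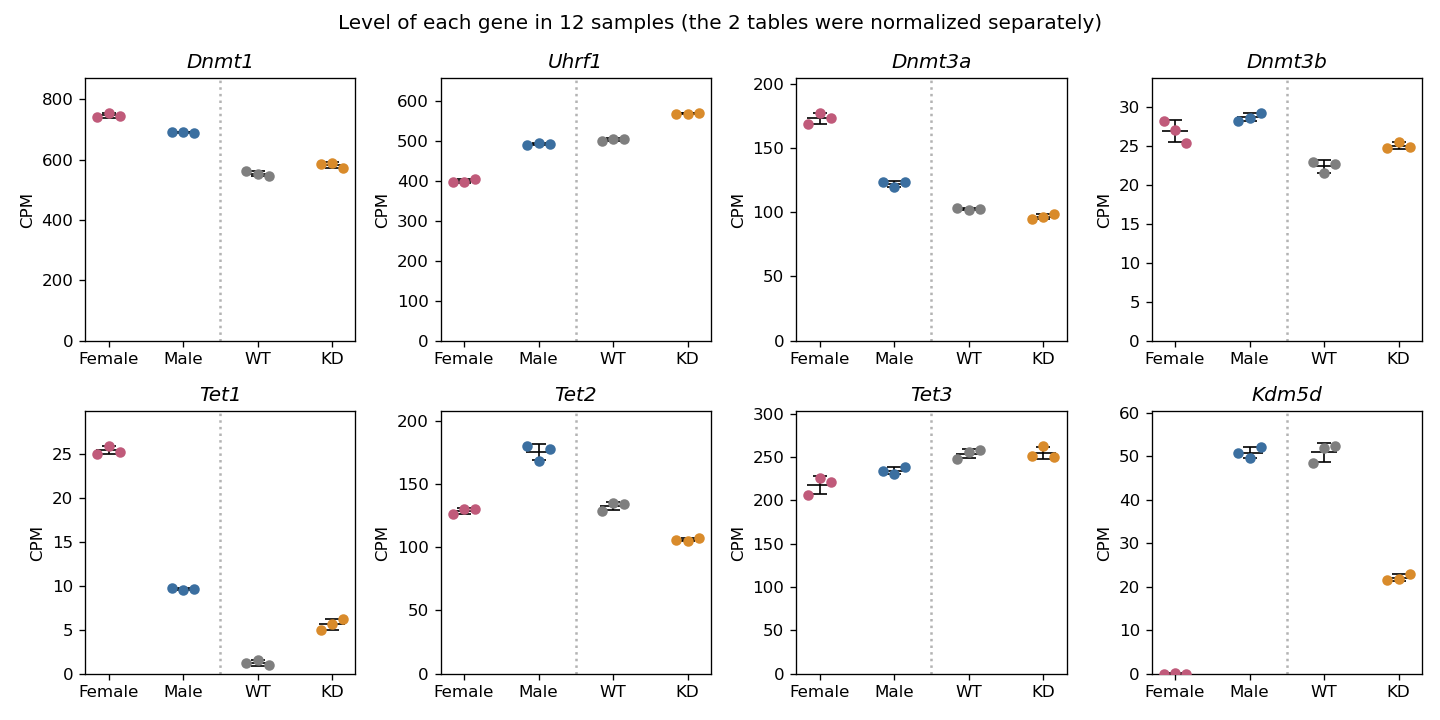
Level in CPM (vertical axis, from 0) of each of the 7 genes and of the targeted gene Kdm5d in the 3 samples of each group (points), with the mean and SD in black. Tet1 is highest in Female and lowest in WT, and only Dnmt3b between Female and Male and Tet3 between WT and KD overlap.

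**Figure D2:**
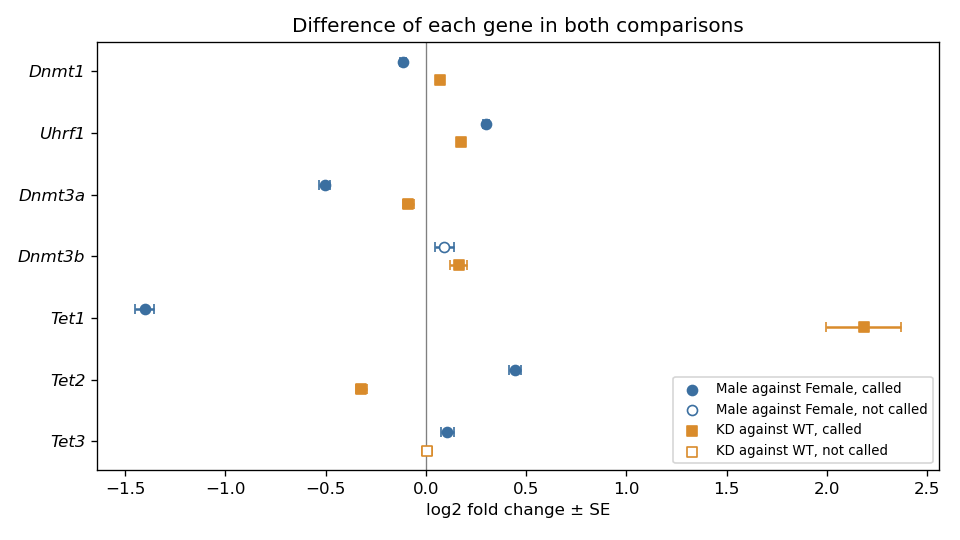
Log2 fold change of each gene with its SE (horizontal axis) in Male against Female (circles) and KD against WT (squares), with open symbols for genes that did not pass the test. Tet1 has the widest change in both, at -1.40 and 2.18, and Tet2 the opposite sign to Tet1 in each.

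Dnmt1 (ENSMUSG00000004099, chr9:20907209-20959888, minus strand, GRCm38) encodes the maintenance methyltransferase. It was at 740.5, 755 and 743 CPM in Female and 692, 691 and 688 in Male. The 3 Male samples lay below the Female samples in a narrow band. The log2 fold change was -0.11 (SE 0.015, edgeR adjusted p 0.00011), a mean in Male of 92.5% of that in Female. With the trend of each library on exon length removed, it was -0.015 (edgeR adjusted p 0.42) and did not pass. Genes with longer exons tended to be lower in Male: the median log2 fold change was 0.057 for genes of up to 2000 bases of exon, -0.066 from 4000 to 8000 and -0.18 above 12000, among genes of at least 2 CPM on average. Dnmt1 has 7377 bases of exon.

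In the knockdown batch, Dnmt1 was at 561, 553 and 545 CPM in WT and 585, 589 and 570.4 in KD. All KD samples were above all WT samples, by a margin close to the spread within each group. The log2 fold change was 0.072 (SE 0.019, edgeR adjusted p 0.013). Without WT 3 the adjusted p was 0.072 and without KD 1 it was 0.0503, so this call rested on these libraries.

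Uhrf1 (ENSMUSG00000001228, chr17:56303321-56323486, plus strand, 4259 bases of exon) encodes the reader of half-methylated CpGs. In Female it was at 398, 398 and 406 CPM and in Male at 491, 496 and 492. Male was higher in every sample, and the gap between the groups was far wider than the spread within either. The log2 fold change was 0.30 (SE 0.017, edgeR adjusted p 1.87e-07). WT held 501, 506 and 505 CPM and KD 569, 568 and 572. KD was again higher in every sample, and the log2 fold change was 0.18 (SE 0.015, edgeR adjusted p 1.04e-05). The gene shares 24.2% of its 31-base words with other transcripts, mostly with the processed pseudogenes Gm5648 and Gm15953. Those pseudogenes held 156 to 248 and 79 to 242 counts, against 33702 to 61674 for Uhrf1, so their counts were small beside it, although reads may have been assigned either way.

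Uhrf1 and Dnmt1 thus moved apart between the sexes. With the length trend removed only Uhrf1 passed, at 0.33 against -0.015 for Dnmt1. Per kilobase of exon, the ratio of Uhrf1 to Dnmt1 was 0.929 ± 0.017 (SD, n = 3) in Female and 1.24 ± 0.0076 (SD, n = 3) in Male. In the other batch it was 1.58 ± 0.030 (SD, n = 3) in WT and 1.70 ± 0.035 (SD, n = 3) in KD. The groups did not overlap in either table (exact two-sided permutation p 0.1 in each, the smallest that 3 against 3 samples allow). This ratio and the shares below were chosen after the values were seen.

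Dnmt3a (ENSMUSG00000020661, chr12:3806007-3914443, plus strand, 16642 bases of exon) encodes a de novo methyltransferase. It was at 169, 178 and 173 CPM in Female and 123, 119 and 124 in Male. Every Male sample was well below every Female sample. The Male mean was 70.5% of the Female mean, and the log2 fold change was -0.50 (SE 0.027, edgeR adjusted p 1.04e-07), and -0.33 with the length trend removed. In WT it was at 103, 102 and 103 CPM and in KD at 94.6, 96.3 and 98.7. KD was lower in every sample, by a small amount: the log2 fold change was -0.087 (SE 0.027, edgeR adjusted p 0.027). That call was lost with the replicate number as a block (adjusted p 0.057), with upper-quartile factors (0.13), with the length trend removed (0.11), and without WT 1, WT 2, WT 3 or KD 1 (0.069 to 0.10). The antisense gene Dnmt3aos, within the same locus, held 18 to 79 counts per library.

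Dnmt3b (ENSMUSG00000027478, chr2:153649450-153687730, plus strand, 5106 bases of exon), the other de novo methyltransferase gene, was lower in abundance. It was at 28.3, 27.1 and 25.5 CPM in Female and 28.2, 28.7 and 29.3 in Male. The groups overlapped, and the log2 fold change, 0.092 (SE 0.046, edgeR adjusted p 0.13), did not pass. It passed at 0.15 with the length trend removed (edgeR adjusted p 0.022). In WT it was at 23.0, 21.5 and 22.7 CPM and in KD at 24.8, 25.6 and 24.8. All KD samples were higher, and the log2 fold change was 0.16 (SE 0.042, edgeR adjusted p 0.013). The adjusted p was 0.051 without WT 2 and 0.053 without KD 2. Dnmt3b shares 13.5% of its 31-base words with other transcripts, mostly with its neighbour Dnmt3c, which held 24 to 61 counts per library.

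Set against each other per kilobase of exon, the de novo genes differed in balance in both tables. Dnmt3b made up 33.6% ± 1.5 (SD, n = 3) of the pair in Female and 43.4% ± 0.60 (SD, n = 3) in Male. In WT its share was 41.6% ± 0.69 (SD, n = 3) and in KD 45.8% ± 0.69 (SD, n = 3). The groups did not overlap (exact two-sided permutation p 0.1 in each table). The genes differ in exon length, 16642 bases for Dnmt3a and 5106 for Dnmt3b, and the share was not corrected for the length trend. With that trend removed, the log2 fold changes in Male against Female were -0.33 for Dnmt3a and 0.15 for Dnmt3b. In KD against WT, neither gene's call held under every alternative.

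Tet1 (ENSMUSG00000047146, chr10:62804570-62908996, minus strand, 15457 bases of exon) had the widest range of the 7 genes. Female samples held 25.04, 25.9 and 25.3 CPM, from 2122, 2440 and 2455 counts. Male samples held 9.73, 9.53 and 9.59 CPM, from 910, 882 and 848 counts. Each group formed a tight cluster, and the Male mean was 37.8% of the Female mean. The log2 fold change was -1.40 (SE 0.046, edgeR adjusted p 3.61e-09), and 4.21% of the genes tested changed as much or more in either direction. With the length trend removed it was -1.23, and Tet1 passed under every alternative tried.

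In the knockdown batch Tet1 was at low counts. WT samples held 1.22, 1.56 and 0.917 CPM, from 133, 150 and 89 counts. KD samples held 4.93, 5.62 and 6.20 CPM, from 394, 610 and 599 counts. The lowest KD sample was above the highest WT sample by more than the range within either group, although WT varied more between samples than any other member did, with an SD of 26.0% of the mean. The KD mean was 4.54 times the WT mean, and the log2 fold change was 2.18 (SE 0.19, edgeR adjusted p 9.37e-06). Only 0.818% of genes changed as much or more in either direction. Leaving out single libraries gave 2.01 to 2.39.

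Tet2 (ENSMUSG00000040943, chr3:133463679-133545139, minus strand, 16870 bases of exon) moved the opposite way to Tet1 in both comparisons. It was at 126, 131 and 129.97 CPM in Female and 181, 168 and 178 in Male. All Male samples were higher, and the log2 fold change was 0.44 (SE 0.030, edgeR adjusted p 6.02e-07), and 0.62 with the length trend removed. In WT it was at 129, 135 and 135 CPM and in KD at 106, 105 and 107. Every KD sample was lower, and the log2 fold change was -0.32 (SE 0.027, edgeR adjusted p 7.63e-06).

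Tet3 (ENSMUSG00000034832, chr6:83362373-83459084, minus strand, 16695 bases of exon) was the steadiest of the 3 TET genes. It was at 207, 226 and 221 CPM in Female and 234, 231 and 238 in Male. Male was higher in every sample, but the lowest Male value was close to the highest Female one. The log2 fold change was 0.11 (SE 0.032, edgeR adjusted p 0.018), which no longer passed without the low-count filter (0.073) or without Female 1 (0.066), Male 1 (0.069) or Male 3 (0.072). With the length trend removed it was 0.28. WT held 248, 256 and 258 CPM and KD 251, 263 and 251. The groups overlapped, and the log2 fold change was 0.0069 (SE 0.026, edgeR adjusted p 0.87). The overlapping genes 5430434F05Rik and B230319C09Rik held 147 to 497 and 185 to 462 counts per library, against 17520 to 28600 for Tet3.

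The make-up of the TET transcripts, which does not rest on the scaling of libraries, differed between groups in both tables. Per kilobase of exon, Tet1 made up 7.36% ± 0.16 (SD, n = 3) of the 3 TET genes in Female and 2.48% ± 0.041 (SD, n = 3) in Male. It made up 0.344% ± 0.089 (SD, n = 3) in WT and 1.65% ± 0.19 (SD, n = 3) in KD. Tet3 was the main TET transcript throughout, at 58.4%, 56.0%, 65.7% and 69.7% in Female, Male, WT and KD. Tet2 took 34.2%, 41.5%, 34.0% and 28.7%. No share overlapped between the groups of a table (exact two-sided permutation p 0.1 for each). The shares add up to a whole, so they are not 3 separate results beside the levels of the genes. The CPM of Tet3 itself overlapped between WT and KD.

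**Figure D3:**
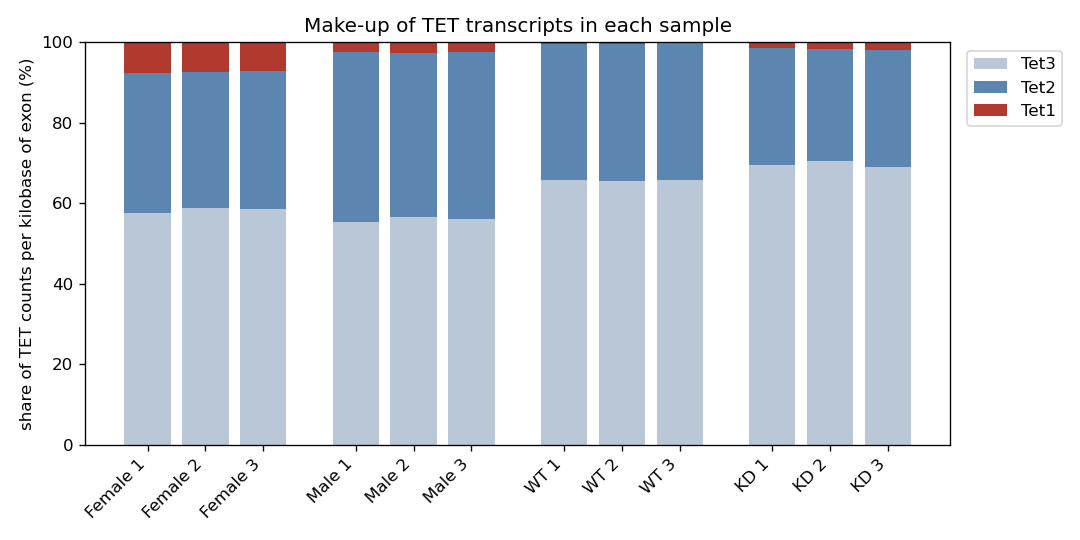
Share (%) of Tet1, Tet2 and Tet3 in the counts per kilobase of exon of the 3 genes together, 1 bar per sample. Tet3 holds over 55% in every sample, and Tet1 averages 7.36% in Female, 2.48% in Male, 0.344% in WT and 1.65% in KD.

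Compared per kilobase of exon, the order of the members was nearly the same in all groups. In Female, Dnmt1 led at 101 CPM per kilobase, followed by Uhrf1 (94.0), Tet3 (13.1), Dnmt3a (10.4), Tet2 (7.65), Dnmt3b (5.28) and Tet1 (1.64). Male differed in that Uhrf1 stood above Dnmt1 (116 and 93.6) and Tet2 above Dnmt3a (10.4 and 7.35). WT and KD had the order of Male, with Uhrf1 at 118 and 134 CPM per kilobase and Tet1 last at 0.0796 and 0.361. Within each group the ranges of neighbours in this order did not overlap. The maintenance genes were thus the most abundant and Tet1 the least abundant per length in every group. Levels of Female and Male were normalized apart from those of WT and KD, and the batches differ in electroporation and culture, so no test was made across the tables.

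Dnmt1 and Uhrf1 are known to be transcribed with the genes of DNA replication, so the members were also set against a list of 26 such genes. Between the sexes 9 of the 26 rose and 12 fell in Male, and their median log2 fold change was 0.00061, beside 0.011 over all genes tested. Of all genes, 23.5% rose and 26.3% fell there. In KD, where 16.8% of all genes rose and 18.4% fell, 21 of the list rose and 1 fell, with a median of 0.20 beside 0.012. Among them were Pcna, the sliding clamp, at 496 CPM against 399 (log2 fold change 0.31, edgeR adjusted p 9.65e-07), and Mcm6, a subunit of the replicative helicase, at 494 against 415 (0.25, edgeR adjusted p 9.67e-07). The 1 that fell was Cdt1, a licensing factor, at 115 against 127 CPM (-0.15, edgeR adjusted p 0.0040). Pcna and Mcm7 share 23.3% and 33.4% of their 31-base words with other genes.

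Each member's log2 CPM was then taken relative to the mean of that list in the same sample. Between Male and Female the differences hardly moved, since the mean of the list differed by -0.0035: Dnmt1 -0.11, Uhrf1 0.30, Dnmt3a -0.50, Tet1 -1.40 and Tet2 0.45. Between KD and WT the list itself was higher by 0.20. Relative to it Uhrf1 differed by -0.019 and Dnmt3b by -0.032, and only the latter overlapped between the groups. Dnmt1 was lower in KD on this scale, by -0.12, against 0.072 on the library scale. Tet3 was lower by -0.19, Dnmt3a by -0.28 and Tet2 by -0.52, while Tet1 remained higher by 2.00. Exact two-sided permutation p was 0.1 for each member without overlap, and 0.4 for Dnmt3b. In KD against WT the sign of Dnmt1 and of Uhrf1 therefore differs between the library scale and that of the replication genes, by a small amount for Uhrf1 on the latter. Dnmt3b, higher on the library scale, overlapped between the groups relative to the list, and Tet3, which overlapped on the library scale, did not relative to the list.

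**Figure D4:**
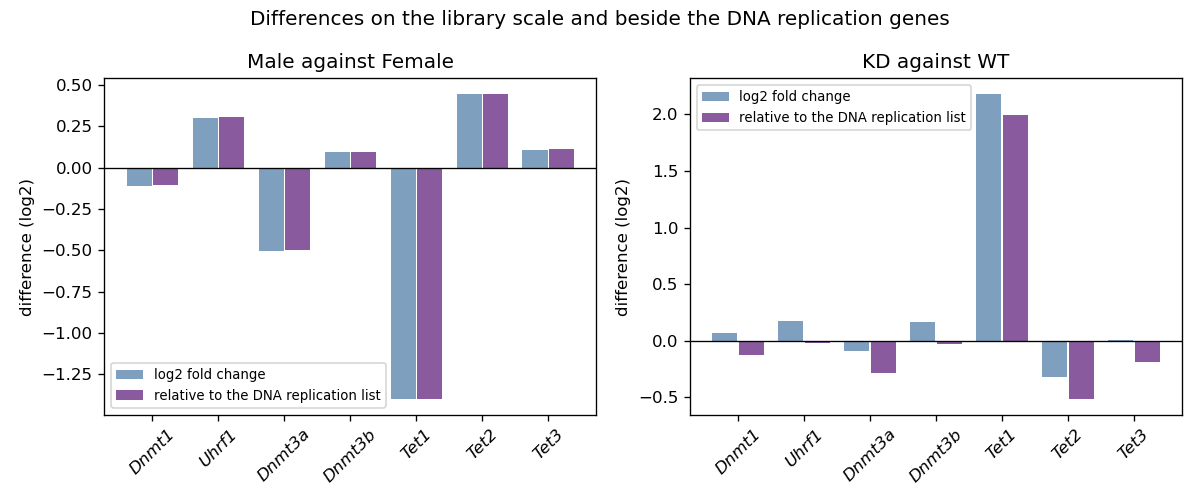
Difference (log2) of each gene on the library scale and relative to the mean of 26 DNA replication genes, in Male against Female (left) and KD against WT (right, with its own axis). On the right Dnmt1 changes sign, from 0.072 to -0.12, and Tet1 stays near 2.

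The genes most like each member across the 12 samples were found by Pearson correlation of log2 CPM centred on the mean of each table, among 11873 genes. These samples form 4 groups in 2 tables, so a high value mostly says that the differences between groups were alike. Nearest to Uhrf1 were Gart, an enzyme of purine synthesis (r = 0.998), Tfrc, the transferrin receptor (r = 0.997), and Dna2, a nuclease and helicase of replication (r = 0.995). Among the genes nearest to Tet2 were Gm8979 (r = 0.991) and the chemokine receptor gene Ccr2 (r = 0.991). Ccr2 rose in Male (log2 fold change 2.39) and fell in KD (-1.59), with the signs of Tet2. Nearest to Tet1 were D630045J12Rik (r = 0.986), Ssx2ip (r = 0.986) and Eif3f (r = 0.983).

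Dnmt3a was closest to Madd (r = 0.995), Scarb2 (r = 0.994) and Chd3 (r = 0.993), and Dnmt1 to Apbb2 (r = 0.983), Klhl23 (r = 0.981) and Zfp609 (r = 0.978). The nearest genes of Dnmt3b, Slc29a2 (r = 0.949), Plbd2 (r = 0.940) and Gm17300 (r = 0.938), were less close. So were those of Tet3: Notch1 (r = 0.927), Polr2a (r = 0.925) and Gm44694 (r = 0.917). Among the members, on the same scale, Dnmt1 and Tet2 stood at r = -0.95, Uhrf1 and Dnmt3a at -0.93, Tet1 and Tet2 at -0.90, and Dnmt1 and Tet1 at 0.86. These 4 were the strongest of the 21 pairs.

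The other genes of the pathway were taken from lists. The counts of each list stand beside 49.8% of all genes called in Male against Female and 35.1% in KD against WT. No share was computed among genes as abundant as those listed, and whether a list differs from other genes was not tested. Of 15 writer partners, which recruit, modify or oppose the methyltransferases, 14 were tested; 5 rose and 8 fell in Male (median log2 fold change -0.13), and 4 rose and 4 fell in KD (0.023). Setd2, whose histone mark DNMT3 enzymes read, fell in Male from 241 to 170.4 CPM (-0.50, edgeR adjusted p 3.48e-08) and in KD from 148 to 136 (-0.13, edgeR adjusted p 0.0029). Uhrf2, the paralog of Uhrf1, fell in Male from 134 to 105 CPM (-0.36, edgeR adjusted p 2.86e-07), where Uhrf1 itself rose, and was at 75.6 CPM in KD and 75.9 in WT (-0.0063, edgeR adjusted p 0.93). Pclaf, a PCNA-binding protein, rose in Male (0.29, edgeR adjusted p 3.26e-06) and in KD (0.30, edgeR adjusted p 8.59e-07). Cdca7, which helps bring the remodeller HELLS to chromatin, fell in Male from 153 to 135 CPM (-0.18, edgeR adjusted p 6.53e-05) and rose in KD from 110.4 to 144 CPM (0.38, edgeR adjusted p 7.97e-06).

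The next list held 16 genes: TET partners, enzymes that make or use 2-oxoglutarate or act on 2-hydroxyglutarate, succinate or fumarate, which can compete with it, and transporters of vitamin C, a further cofactor. Of these 15 were tested; 7 rose and 4 fell in Male (median 0.051), and 5 rose and 3 fell in KD (0.044). Cxxc5, a CXXC zinc-finger protein that binds unmethylated CpGs, fell in Male from 10.0 to 3.37 CPM (-1.57, edgeR adjusted p 5.68e-07) and rose in KD from 1.02 to 2.51 CPM (1.30, edgeR adjusted p 7.08e-05). Idh1, the cytosolic isocitrate dehydrogenase that makes 2-oxoglutarate, went the other way. It rose in Male from 8.63 to 15.2 CPM (0.81, edgeR adjusted p 9.27e-06) and fell in KD from 11.4 to 7.49 CPM (-0.61, edgeR adjusted p 0.0010). The mitochondrial Idh2 fell in Male (-0.36, edgeR adjusted p 9.95e-05) and rose in KD (0.16, edgeR adjusted p 0.029). Idh3a rose in Male (0.64, edgeR adjusted p 3.49e-08) and did not pass in KD (0.044, edgeR adjusted p 0.28). The KD counts of this list were 2 to 5 higher and 1 to 3 lower over the alternatives.

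All 16 genes listed for removal of oxidised bases were tested. In Male 6 rose and 7 fell (median -0.024), and in KD 4 rose and 4 fell (-0.033). Gadd45b and Gadd45g, stress-response genes linked to active demethylation, moved apart in Male: Gadd45b fell from 20.9 to 9.31 CPM (-1.17, edgeR adjusted p 1.48e-07) and Gadd45g rose from 8.64 to 16.3 (0.92, edgeR adjusted p 4.11e-07). Both fell in KD, by -0.38 and -0.68 (edgeR adjusted p 0.0088 and 1.30e-05). Parp1, which responds to strand breaks, rose in both comparisons (0.39 and 0.24, edgeR adjusted p 2.71e-07 and 1.31e-05). The glycosylase gene Neil3 fell in Male (-0.41, edgeR adjusted p 1.11e-06) and rose in KD (0.53, edgeR adjusted p 4.58e-06).

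A further list held 7 genes of the families of methyl-CpG readers. All 7 passed in Male against Female, 2 higher and 5 lower (median -0.19), and 4 passed in KD, 1 higher and 3 lower (-0.093). Over all genes tested, 49.8% and 35.1% passed. Zbtb38, a zinc-finger reader, fell in Male from 77.0 to 50.2 CPM (-0.62, edgeR adjusted p 1.04e-07) and in KD from 37.6 to 24.3 CPM (-0.63, edgeR adjusted p 7.79e-06). Mbd3, listed by its family and part of the NuRD complex, rose in both (0.19 and 0.13, edgeR adjusted p 0.00012 and 0.010). Mbd2 rose in Male (0.096, edgeR adjusted p 0.0081) and fell in KD (-0.20, edgeR adjusted p 0.00024).

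The methyl donor cycle supplies S-adenosylmethionine, the substrate of the methyltransferases. Of its 16 genes, 10 rose and 4 fell in Male, with a median log2 fold change of 0.28, and 7 rose and 5 fell in KD (0.11). Over all genes tested, 23.5% rose and 26.3% fell in Male, and 16.8% rose and 18.4% fell in KD. The methionine transporter subunit Slc7a5 rose in Male from 538 to 986 CPM (0.87, edgeR adjusted p 6.64e-11) and fell in KD from 342 to 258 (-0.41, edgeR adjusted p 3.99e-07). Slc43a2, another listed transporter, went the other way, lower in Male (-0.56, edgeR adjusted p 6.61e-08) and higher in KD (0.23, edgeR adjusted p 0.00069). Mat2b was also among the 4 that fell in Male (-0.38, edgeR adjusted p 3.64e-07). Shmt1, which feeds the folate pool from serine, rose in Male from 26.8 to 60.4 CPM (1.18, edgeR adjusted p 1.50e-09) and in KD from 70.0 to 84.5 (0.27, edgeR adjusted p 3.49e-05). The folate enzyme gene Mthfd1 also rose in both, from 73.2 to 119 CPM in Male (0.70, edgeR adjusted p 2.59e-08) and from 135 to 225 in KD (0.74, edgeR adjusted p 1.05e-08). Mat2a, which makes S-adenosylmethionine, rose in both, from 92.2 to 195 CPM in Male (1.08, edgeR adjusted p 1.96e-08) and from 399 to 452 in KD (0.18, edgeR adjusted p 2.19e-05). It shares 19.5% of its 31-base words with other genes, and its Male value was named after it was seen.

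**Figure D5:**
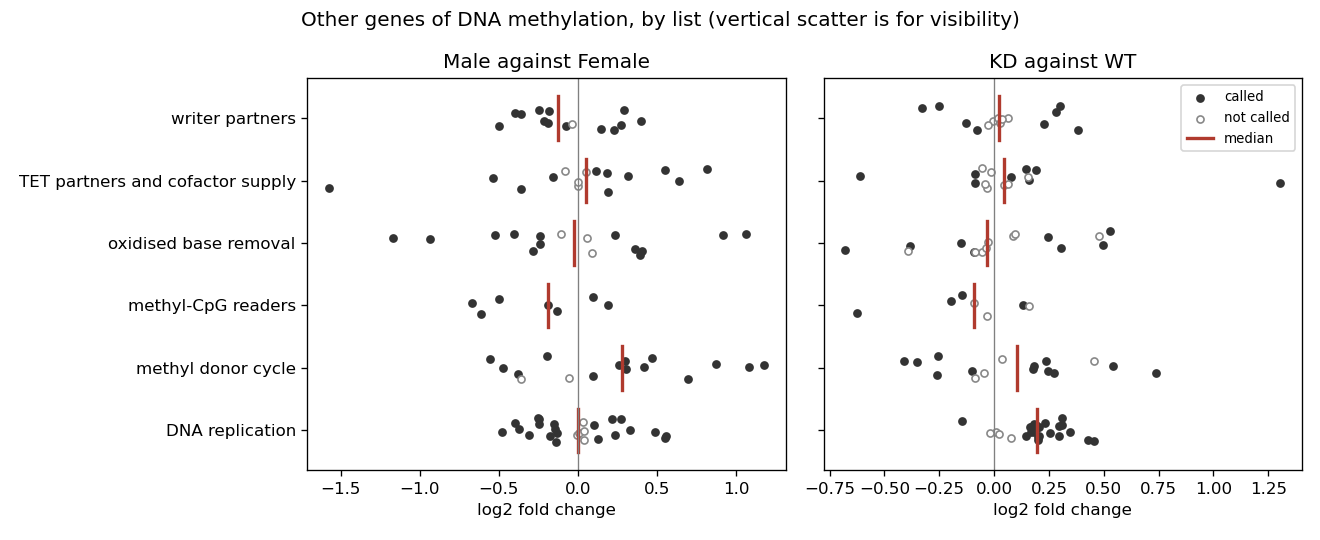
Log2 fold change (horizontal axis) of each tested gene in 6 lists, filled where it passed the test, with the median of the list in red, for Male against Female (left) and KD against WT (right, with its own axis). The methyl donor list has a median of 0.28 on the left, and on the right 21 of 26 DNA replication genes passed above 0.

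Genes known to be kept silent or monoallelic by DNA methylation were looked at last. Of 14 germline genes that promoter methylation holds silent in body cells, 9 had no count in the Female and Male table and 9 had none in the WT and KD table. Piwil2, a PIWI protein of the germline, rose in Male from 1.10 to 2.96 CPM (1.42, edgeR adjusted p 6.61e-05), 1 of 3 germline genes that could be tested. It was at 6.24 CPM in WT and 5.74 in KD (-0.12, edgeR adjusted p 0.37), and neither of the 2 testable genes passed there. Of 24 imprinted genes 16 were tested in each table; 1 rose and 4 fell in Male (median -0.024), and 3 rose and 2 fell in KD (-0.13). Kcnq1ot1, an imprinted long noncoding RNA, rose in both (0.60 and 0.21, edgeR adjusted p 2.62e-08 and 9.62e-05). The 4 that fell in Male were Zrsr1, Dlk1, Peg3 and Grb10. Dlk1, at very low levels, fell in Male from 0.37 to 0.087 CPM (-2.08, edgeR adjusted p 0.0064). In KD it rose from 0.17 to 0.92 CPM (2.40, edgeR adjusted p 6.17e-05). Igf2r, the receptor that clears IGF2, fell in KD from 336 to 241 CPM (-0.48, edgeR adjusted p 7.12e-08), and Airn, the antisense RNA of its locus, also fell (-0.45, edgeR adjusted p 0.0060). Neither passed in Male (0.014 and 0.54, edgeR adjusted p 0.74 and 0.081). Airn overlaps Igf2r in the genome, but Igf2r shares 0% and Airn 0.69% of their 31-base words with annotated transcripts of other genes. Whether the counts used strand was not given, so how reads of unspliced RNA from this locus were assigned is not known.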

How the data were processed

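Total RNA of 12 samples (QIAGEN RNeasy Plus Universal, Illumina stranded total RNA after ribosomal depletion) was sequenced, per the labels' protocols. The authors deposited raw counts per gene in 2 tables. The submitters' processing notes name bcl2fastq 2.20.0, HISAT2, StringTie, DESeq2 and build mm10, without roles; the use of strand is not given in the sources used here. Groups came from the sample titles. Each table was fitted separately on its 6 samples with edgeR 4.0.16 in R 4.3.3: filterByExpr, TMM, quasi-likelihood test, Benjamini-Hochberg over all genes tested, called at an adjusted p under 0.05. The SE is the absolute log2 fold change over the square root of F. Log2 CPM used a prior count of 2 in the length correction and the check of pairing. For values relative to the DNA replication list and for correlations, a small constant was added to CPM instead. Single values within a library used exact permutation tests. DESeq2 1.42.0 and limma 3.58.1 served as alternatives. Symbols, exon lengths and positions came from GENCODE M21 (GRCm38), which matched 55227 of 55487 identifiers.

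The members and lists were chosen with earlier results of these data known. Named are all members, Kdm5d, up to 3 genes per list, direction and comparison with the smallest p (for a list with no call, the gene with the highest mean CPM), and the 3 genes most like each member; not each is printed, and some are not reported here. On simulated counts, false calls stayed near the nominal rate where the spread between replicates followed abundance and exceeded it where genes differed in spread, so calls near the threshold are less sure. A first version of this check failed its limit on false calls in the KD and WT design, and the check was then revised to cover both kinds of spread. Of the list genes named, Hdac1, Apex1, Ahcy, Mcm7, Pcna, Mat2a and D2hgdh were among those that share over 10% of their 31-base words with other genes, and their counts are uncertain.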

Additional observations from a re-analysis of the deposited data

How the results depend on the processing

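The alternatives were other normalizations, tests (DESeq2, limma-voom), low-count filters, all samples in one fit, a length correction, counts divided by 4, thinning, and leaving out each replicate. Genes called ranged from 9190 to 10224 in Male against Female and from 6073 to 7385 in KD against WT, each within 1.5 times the reported count. Members called were 5 to 6 and 4 to 6 of 7. Tet1, Tet2 and Uhrf1 passed in both comparisons, and Dnmt3a in Male against Female, under every alternative. The calls that did not hold are given beside Dnmt1, Dnmt3a, Dnmt3b and Tet3; the cause was not tested. Tet3 in KD against WT, which did not pass, ranged from -0.019 to 0.019 (log2) when single replicates were left out, and turned negative without WT 1 (-0.011) and KD 2 (-0.019). Set against the median of the DNA replication list instead of its mean, no member changed sign; Dnmt1 in Male against Female moved from -0.11 to -0.063 and Uhrf1 in KD against WT from -0.019 to -0.031. Without the scaling per kilobase, a choice made after seeing the data, the difference in the Tet1 share was -4.54 percentage points in Male against Female and 1.21 in KD against WT, in the same directions. The Dnmt3b share depended more on that scaling: it differed by 5.57 points, against 9.75 per kilobase, in Male against Female. In KD against WT it differed by 2.70, against 4.27 per kilobase. The mean ratio of Uhrf1 to Dnmt1 was 0.537 in Female, 0.714 in Male, 0.911 in WT and 0.980 in KD. Directions were kept, but Uhrf1 then stood below Dnmt1 on average in every group.

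Replicate numbers come only from the titles. Deviations from the group means showed no pairing: over pairs with one number their correlation averaged 0.0053 in Male against Female and -0.0080 in KD against WT, and 1 of the 3 Male and 1 of the 3 KD samples correlated best with its own number. With the replicate number as a block, 9740 and 6688 genes were called, and of the members only Dnmt3a in KD against WT changed its call (adjusted p 0.057).

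Depth limits Tet1 in WT most, where it rests on 89 to 150 counts per library.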
